A study of Mus musculus with 352 samples.

Results

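The NAD synthesis and sirtuin genes comprised 9 named genes that make, use or reduce nicotinamide adenine dinucleotide (NAD) with its phosphate: Nampt, Nmrk1, Nmrk2, Naprt, Nmnat1, Nmnat3, Sirt1, Sirt3 and Nnt. They were chosen by name and found by symbol among the 14413 genes of the deposited RNA-seq table, and 9 of 9 were also among the 9862 genes tested, those whose log2 values average 0 or more. The study measured tibialis anterior muscle, a lower-leg muscle made mostly of fast fibres, in 352 C57BL/6 mice (177 female and 175 male). Each mouse gave 1 library from 1 of 6 time points over the day, from zeitgeber time (ZT) 0, when the lights go on, in steps of 4 h, and each of the 15 groups held 22 to 25 mice.

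At 10 to 12 weeks and again at 26 weeks of age, 5 genotypes were fed ad libitum. RE-RE mice were Bmal1(stopFL/stopFL) with both Syt10-Cre(-/tg) and Hsa-Cre(-/tg), Br-RE mice carried Syt10-Cre(-/tg) only, Mu-RE mice carried Hsa-Cre(-/tg) only, and KO mice were Bmal1(stopFL/stopFL), Cre(-/-). All 4 therefore carried the stopped Bmal1 allele, which Cre reopens: the Hsa promoter drives Cre in skeletal muscle and the Syt10 promoter in the brain, where it includes the suprachiasmatic nucleus. The fifth genotype was wild-type (WT). At 26 weeks, Mu-RE, KO and WT mice were also studied under time-restricted feeding (TRF), and WT mice of 85 to 116 weeks (old) were studied under TRF and ad libitum feeding. The hours of food access were not given in the sources used here, and where labels do not tie samples to litters or cages, p-values measure the spread between these mice.

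NAD is a carrier of electrons in energy metabolism and is also split by enzymes that release nicotinamide. Nampt makes the rate-limiting step of the salvage route that returns nicotinamide to NAD, the nicotinamide riboside kinases Nmrk1 and Nmrk2 and the nicotinic acid enzyme Naprt feed other routes, and the Nmnat enzymes carry out the last step. In mouse liver and other tissues Nampt is a known target of the circadian clock, a loop in which BMAL1 (gene Arntl) and CLOCK bind E-boxes in the promoters of their targets, and the NAD-dependent deacetylase Sirt1 is known to act back on that clock.

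The promoters of Nampt and Sirt1, which encode the salvage enzyme and the sirtuin tied to the clock, are shown. Both genes were lower in the younger knockout muscle, as were Nmrk2, Nmnat1 and Sirt3. Of the windows matched, only those of Nampt and Sirt1 held a motif searched for below. The sequences are the 250 bases before each RefSeq transcript start (GRCm38.p6), at chr12:32820085-32820334 on the plus strand for Nampt and chr10:63339036-63339285 on the minus strand for Sirt1. Capitals in these 250 bases mark matches to the E-box CACGTG, its variant CACGTT and AGGTCA, the core of the ROR element. Each was searched on both strands (AACGTG and TGACCT are the other strands of the variant and the core). Bases beside the core were not searched, so a match to it is not shown to be a full ROR element. RefSeq windows were matched for 7 of the 9 genes, and Naprt and Nnt were the 2 without one.
Nampt: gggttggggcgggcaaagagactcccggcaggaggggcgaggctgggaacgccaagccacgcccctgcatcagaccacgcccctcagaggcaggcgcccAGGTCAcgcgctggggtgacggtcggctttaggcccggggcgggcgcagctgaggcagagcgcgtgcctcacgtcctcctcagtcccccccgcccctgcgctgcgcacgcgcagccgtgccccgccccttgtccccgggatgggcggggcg
Sirt1: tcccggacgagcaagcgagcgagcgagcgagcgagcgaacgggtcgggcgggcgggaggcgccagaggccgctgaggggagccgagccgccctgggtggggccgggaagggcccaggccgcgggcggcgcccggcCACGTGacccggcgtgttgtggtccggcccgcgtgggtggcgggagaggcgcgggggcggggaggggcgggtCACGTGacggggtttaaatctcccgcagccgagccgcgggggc
The Sirt1 window held CACGTG at 2 places, whose first bases lie at -115 and -43 from the start, and 6.02% of the 32851 RefSeq windows hold that motif in the same 250 bases. The Nampt window held AGGTCA once, at -151, a motif found in 14% of windows, and no CACGTG. The variant CACGTT, found in 3.85% of windows, was in none of the windows of the 7 genes, and those of Nmrk1, Nmrk2, Nmnat1, Nmnat3 and Sirt3 held none of the 3 motifs.

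Values are the deposited log2 FPKM, fragments per kilobase of gene scaled to the library size, so they can be set side by side between genes. Per-library depth, recovered from the size of 1 read in the low values, was 14.75 to 47.8 M reads with a median of 22.54 M. For each gene the mean over female libraries equalled that over male libraries to within 1e-05, and at each age the libraries of Br-RE with RE-RE mice had gene means equal to those of the rest, so sexes were not compared and levels of Br-RE and RE-RE mice were set only against each other. In KO muscle the clock output gene Dbp, driven by BMAL1, was below WT at both ages (differences of -2.71 and -3.13; adjusted p = 1.28e-21 and 2.58e-26), while Arntl itself was higher (0.58 and 1.12) with a 24 h amplitude of 0.06 and 0.08 against 1.57 and 1.08 in WT. Reads over the whole Arntl gene do not show which of them come from the stopped allele, so its level does not check the genotype. The 8 fast fibre markers, Myh4 and Actn3 among them, had median summed levels of 15.57 and 15.42 in KO muscle and 15.21 and 15.39 in WT muscle at 10 and 26 weeks. In 4 libraries the standard deviation (SD) of the difference from the group mean over the tested genes was above 0.7, against a median of 0.328: 2 from KO muscle at 26 weeks, 1 from WT TRF and 1 from old ad libitum muscle. Results that turn on them are given with and without them. In bulk muscle, fewer cells of a type and less RNA per cell cannot be told apart.

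Across all libraries Nmrk2, the muscle form of the riboside kinase, was the highest of the 9 genes, with a mean of 5.76 (54.3 FPKM). Its gene lies at chr10:81198170-81202051 in GRCm38, on the minus strand. Nampt came next at 5.21 (37.1 FPKM), from chr12:32819545-32853349 on the plus strand. The 2 enzymes make nicotinamide mononucleotide, Nmrk2 from the riboside and Nampt from nicotinamide. The mitochondrial deacetylase Sirt3 followed at 3.67 (12.7 FPKM) and Nnt, which makes NADPH at the inner mitochondrial membrane, at 3.32 (10.0 FPKM). Nmnat1, the nuclear form of the last enzyme, stood at 2.96 (7.78 FPKM), above its mitochondrial counterpart Nmnat3 at 1.79 (3.46 FPKM). The lowest 3 were Naprt at 1.10 (2.14 FPKM), Sirt1 at 1.0 (2.0 FPKM) and Nmrk1 at 0.56 (1.47 FPKM), each still resting on about 113 to 240 reads in a library of median depth.

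For each of the 9 genes the 15 group means were put in order, and no group differed from its neighbour in that order by more than the larger of their 2 SDs. Steps between 15 ordered means are small in any case, so this is no test of whether groups differ. The full range of the means was wider: highest minus lowest was 0.55 for Nampt (median within-group SD 0.24), 0.70 for Naprt (0.33), 0.72 for Nmrk2 (0.62) and 2.22 for Nnt (0.82). Nampt was highest in WT muscle at 26 weeks (5.43) and lowest in KO muscle at 10 weeks (4.88). Nmrk2 was highest in WT muscle at 26 weeks (6.15) and lowest in WT muscle under TRF (5.43). Naprt was highest in Mu-RE muscle at 10 weeks (1.47) and lowest in KO muscle at 26 weeks (0.78), and Nnt was highest in KO muscle at 26 weeks (4.47) and lowest in old ad libitum muscle (2.24). In this ordering the values of Br-RE and RE-RE mice carry the centring described above.

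**Figure D1:**
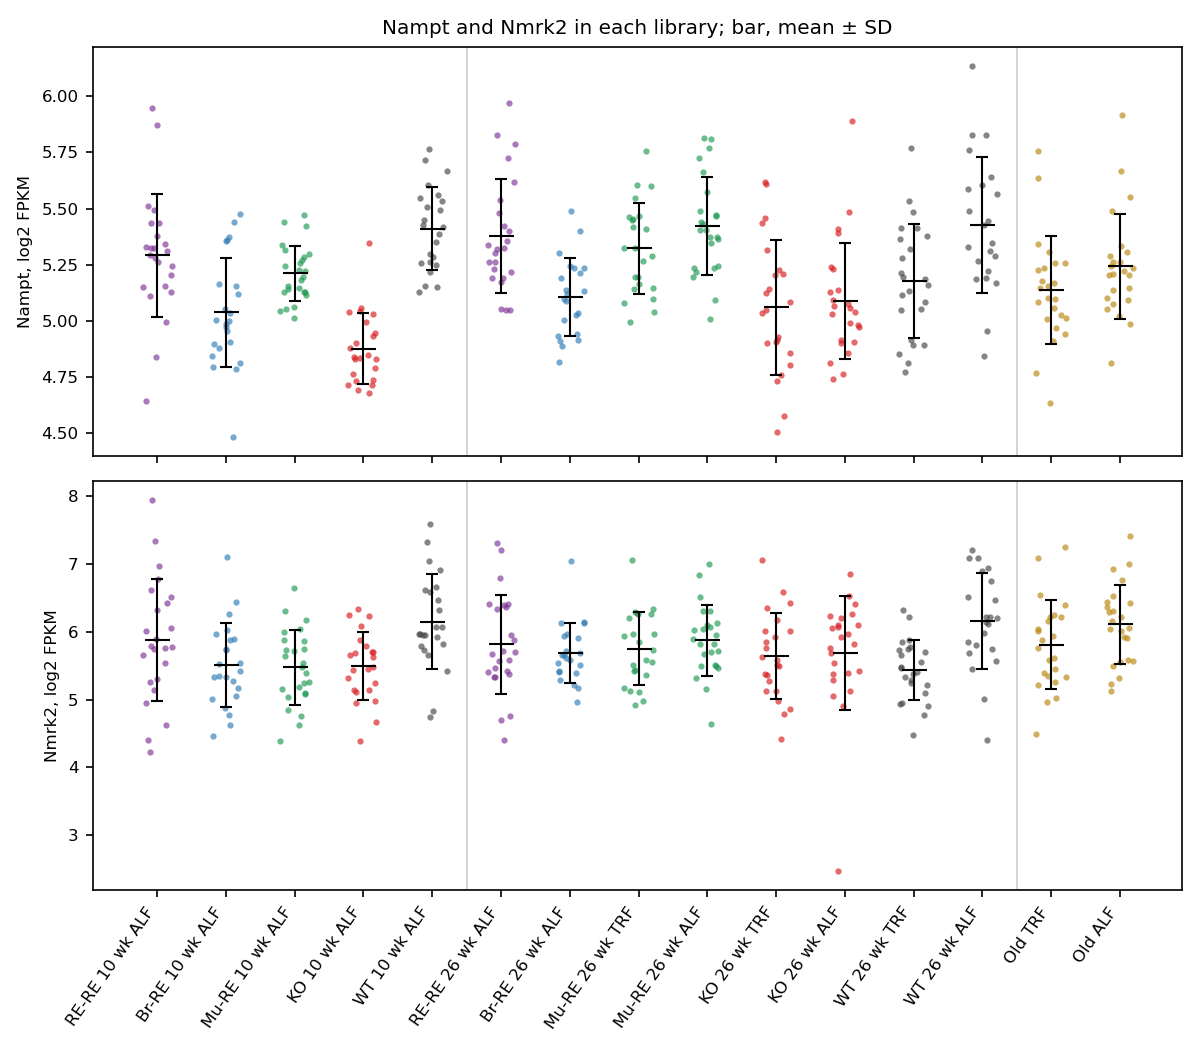
Level of Nampt and Nmrk2 (log2 FPKM) in each library, by group, with the group mean and SD. KO muscle at 10 weeks lies at the foot of the Nampt panel, with 22 of 23 libraries below every WT library of that age, whereas the Nmrk2 values of the groups overlap.

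Knockout muscle was set against WT to ask which of the 9 genes depend on Bmal1. At 10 weeks 5 of the 9 genes were lower in KO muscle and 0 were higher, at an adjusted p below 0.05 (limma, Benjamini-Hochberg over 9862 genes). Of all genes tested, 41.8% passed, 20.3% higher and 21.6% lower. The median difference of the 9 genes was -0.17, against -0.0018 over all genes. KO and WT mice of 10 weeks differed most clearly in the salvage enzyme.

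Nampt in KO muscle at 10 weeks had a lowest, median and highest value of 4.68, 4.84 and 5.35, against 5.13, 5.42 and 5.77 in WT muscle. The geometric mean was 29.4 FPKM in KO muscle and 42.5 FPKM in WT muscle. The groups barely overlapped: 22 of 23 KO libraries lay below all 23 WT libraries. Nampt fell by 0.53 (SE 0.0467; adjusted p = 9.1e-13). Nmrk2 spread over 4.38, 5.48 and 6.34 in KO muscle and 4.74, 5.97 and 7.59 in WT muscle, with 19 of 23 KO libraries below the WT median. It fell by 0.67 (SE 0.173; adjusted p = 0.00157), the larger difference of the 2 but with groups that overlap over most of their range.

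Nmnat1 ran at 2.64, 2.88 and 3.05 in KO muscle and 2.69, 3.04 and 3.3 in WT muscle, and fell by 0.17 (SE 0.0378; adjusted p = 0.000291). All but 1 of 23 KO libraries were below the WT median. Sirt1 ran at 0.62, 0.93 and 1.10 in KO muscle and 0.76, 1.09 and 1.34 in WT muscle, and fell by 0.18 (SE 0.0459; adjusted p = 0.00162). Sirt3 ran at 3.28, 3.61 and 3.89 in KO muscle and 3.28, 3.81 and 4.14 in WT muscle, and fell by 0.20 (SE 0.0667; adjusted p = 0.0145). For Nmnat1, Sirt1 and Sirt3 most KO libraries lay inside the WT range, so these are small shifts of overlapping groups. The Sirt3 call was lost without the second mouse of each time point (adjusted p = 0.139). Naprt (difference 0.11), Nmrk1 (0.10) and Nmnat3 (0.05) did not pass the test, nor did Nnt (0.56; adjusted p = 0.0908), whose values fell into separate runs in several groups, as set out further on. Its difference passed with the variance of all 15 groups (adjusted p = 0.0462), with a gene length slope (0.0371) and without the fourth mouse of each time point (0.73; 0.0365).

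At 26 weeks 4 of the 9 genes passed, 3 lower and 1 higher, where 46.3% of all genes passed, 22% lower and 24.4% higher. Nampt had 4.74, 5.05 and 5.89 in KO muscle and 4.84, 5.39 and 6.14 in WT muscle, means of 34.0 and 43.1 FPKM. It fell by 0.34 (SE 0.0802; adjusted p = 0.000491), with 20 of 24 KO libraries below the WT median but only 3 below every WT library. Naprt fell by 0.31 (SE 0.11; adjusted p = 0.021): 20 of 24 KO libraries were below the WT median. Nmnat1 fell by 0.15 (SE 0.0492; adjusted p = 0.0124). Naprt was at an adjusted p of 0.0852 without the second mouse of each time point, and Nmnat1 at 0.198 without the first and 0.157 without the second. Nmrk2 differed by -0.45 (adjusted p = 0.0807), Sirt3 by -0.16 (0.102) and Sirt1 by -0.14 (0.143). Without the 4 libraries that stood apart Sirt1 differed by -0.18 (adjusted p = 0.0196).

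The effect of the knockout on Naprt differed between the ages, by -0.42 (adjusted p = 0.0145; 18.8% of all genes passed). In KO muscle Naprt ran at 0.51, 1.21 and 1.6 at 10 weeks and at -0.44, 0.81 and 1.52 at 26 weeks, against 0.75, 1.04 and 1.48 and 0.12, 1.14 and 1.58 in WT muscle. KO muscle thus had the higher median at 10 weeks and the lower one at 26 weeks. Without the third mouse of each time point the test gave an adjusted p of 0.109, and without the fourth 0.0547. For the other 8 genes the difference between ages did not pass, and the 2 comparisons share no mice.

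Genes outside the 9 that handle NAD were called in both directions. Of the 5 other sirtuins, 3 were higher in KO muscle at 10 weeks, where 20.3% of all genes were, and 0 lower: the cytoplasmic deacetylase Sirt2 by 0.31 (adjusted p = 2.26e-10), the nucleolar Sirt7 by 0.29 (0.00767) and the mitochondrial Sirt4 by 0.13 (0.0232). At 26 weeks Sirt2 (0.41; adjusted p = 6.88e-08) and Sirt7 (0.49; 1.75e-06) were higher. Of the 7 measured NAD consumers other than sirtuins, 2 were higher at 10 weeks and 5 at 26 weeks, where 20.3% and 24.4% of all genes were. Cd38, an enzyme that splits NAD, was higher by 0.47 (adjusted p = 5.17e-05) and 0.75 (5.55e-05), and the ADP-ribosyltransferase Parp4 by 0.65 at 26 weeks (1.23e-05). Of 3 measured genes of nicotinamide handling, the nucleoside carrier Slc29a1 was higher by 0.23 (4.63e-06) and 0.15 (0.0402). Aox1, which oxidises methylated nicotinamide, was lower, with differences of -0.49 (2e-05) and -0.44 (5.7e-05). Of 13 genes listed under other NAD synthesis 3 were tested, and they gave 0 calls at either age. They were the NAD kinases Nadk and Nadk2 and the mitochondrial NAD carrier Slc25a51, none of which makes NAD itself. The rest of that list, Qprt and Nadsyn1 among them, was absent or below the filter, so other routes of synthesis were not read here.

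Markers of some other cell types differed between KO and WT muscle. Of all genes tested, 20.3% were higher and 21.6% lower at 10 weeks, and 24.4% and 22% at 26 weeks. Macrophage markers were lower in KO muscle, 5 of 5 tested at 10 weeks with a median difference of -1.13 and 4 of 5 at 26 weeks. The summed macrophage level ran at 3.0, 4.0 and 4.86 in KO muscle and 4.20, 5.06 and 6.01 in WT muscle at 10 weeks. Endothelial markers were higher, 4 of 7 at 10 weeks and 6 of 7 at 26 weeks. Fast fibre markers split into 6 higher and 2 lower of 8 at 10 weeks. Median summed fibroblast levels at 10 and 26 weeks were 7.39 and 6.14 in KO muscle and 7.65 and 6.94 in WT muscle. The part of these shifts in the 9 genes' differences was not tested.

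**Figure D2:**
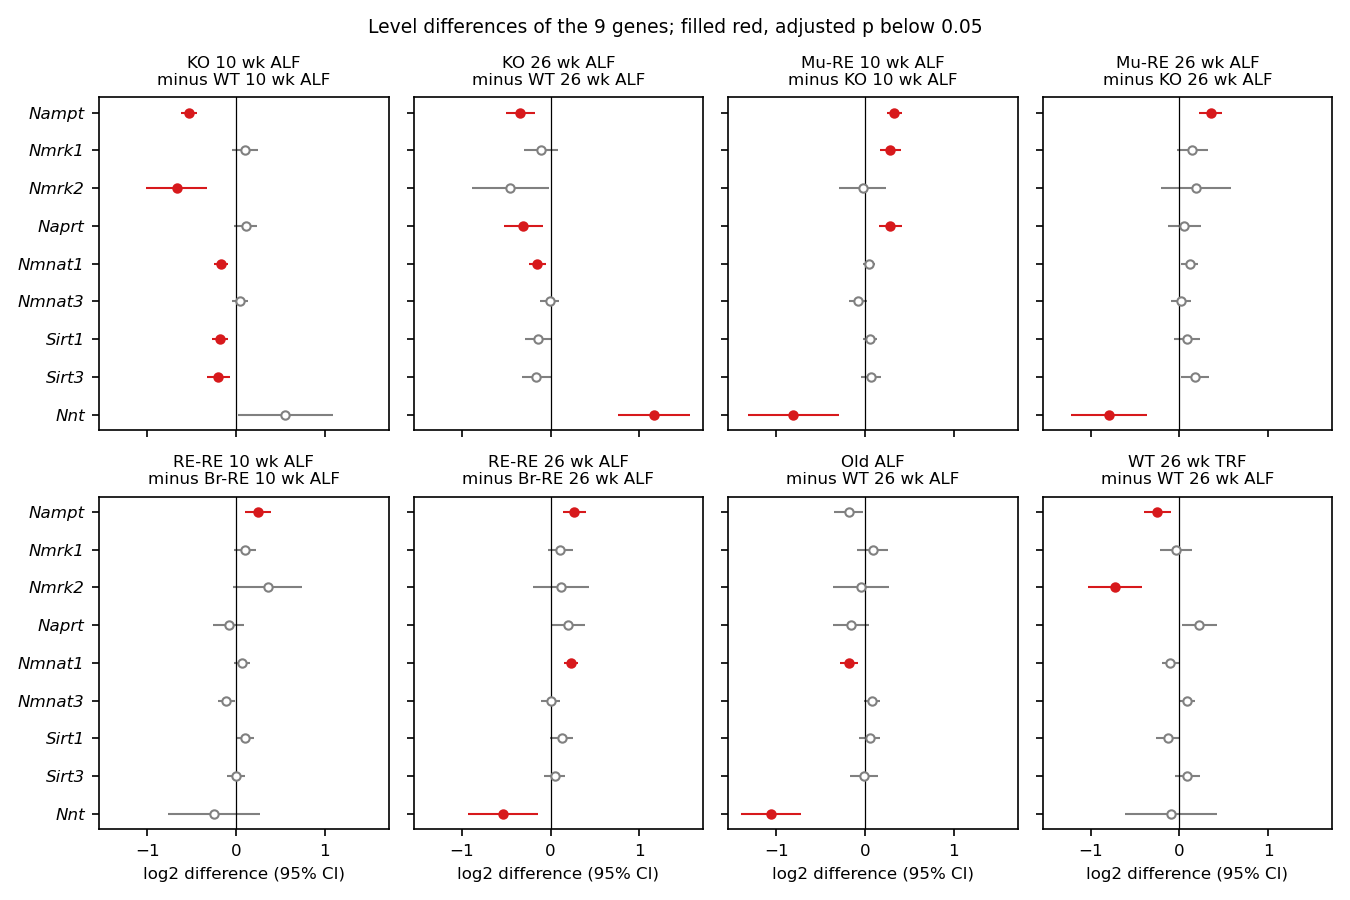
Difference in 24 h mean level of each of the 9 genes (log2, with 95% confidence interval) in 8 comparisons, each titled with the 2 groups in the order of the subtraction. Filled red points passed an adjusted p of 0.05. Nampt lies left of 0 in KO against WT at both ages and right of 0 in Mu-RE against KO and in RE-RE against Br-RE.

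Mu-RE mice were set against KO mice to ask what Bmal1 returned to muscle alone does. Those comparisons share their KO mice with the ones above, so the values are given side by side only. At 10 weeks 4 of the 9 genes passed, 3 higher and 1 lower, where 34.6% of all genes did, 17.4% higher and 17.2% lower. Nampt ran at 5.01, 5.19 and 5.47 in Mu-RE muscle and 4.68, 4.84 and 5.35 in KO muscle, and 25 of 25 Mu-RE libraries lay above the KO median. It rose by 0.33 (SE 0.0403; adjusted p = 4.09e-09). Naprt rose by 0.29 (adjusted p = 0.000475) and Nmrk1 by 0.28 (0.00014), each with 22 of 25 Mu-RE libraries above the KO median. Nmrk2 did not pass: its difference was -0.03 with a 95% interval of -0.30 to 0.24, and its Mu-RE values of 4.38, 5.48 and 6.65 lay over those of KO muscle. Nnt fell by 0.81 (adjusted p = 0.0111), and was at 0.0576 without the third mouse of each time point. Its values in Mu-RE muscle fell into separate runs, as set out further on.

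At 26 weeks 2 of the 9 genes passed, 1 higher and 1 lower, where 33.9% of all genes did, 17.3% higher and 16.6% lower. Nampt ran at 5.01, 5.40 and 5.81 in Mu-RE muscle and 4.74, 5.05 and 5.89 in KO muscle. It rose by 0.35 (SE 0.0635; adjusted p = 1.65e-05), with 23 of 24 Mu-RE libraries above the KO median. Nnt fell by 0.79 (adjusted p = 0.00277), and was at 0.062 without the second mouse of each time point. At this age too its Mu-RE values fell into separate runs. Without the 4 libraries that stood apart, 4 genes passed: Sirt3 was then higher by 0.19 (adjusted p = 0.0438) and Nmnat1 by 0.10 (0.0481).

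Mu-RE muscle was also set against WT muscle. At 10 weeks 6 of the 9 genes passed, 2 higher and 4 lower, where 26.5% of all genes did, 12.6% higher and 13.9% lower. Naprt was higher by 0.39 (adjusted p = 1.45e-06), with 14 of 25 Mu-RE libraries above every WT library, and Nmrk1 by 0.38 (6.04e-05). Nmrk2 was lower by 0.70 on the log2 scale (adjusted p = 0.000728) and Nampt by 0.20 (0.000463). Nampt in Mu-RE muscle of this age thus sat between KO and WT muscle. Nmnat1 (-0.12; adjusted p = 0.00587) and Sirt1 (-0.12; 0.0324) were lower too. Without the deepest library, a WT one of 10 weeks at ZT 0, Sirt1 was at 0.0575, and Sirt3 was then lower by 0.16 on the log2 scale (0.0465). Leaving out 1 mouse of each time point took Sirt1 past the threshold in 3 of 4 fits, to as much as 0.182, and Nmnat1 to 0.0651 without the second.

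At 26 weeks 1 of the 9 genes passed, where 30.8% of all genes did, 16.4% higher and 14.5% lower. It was Naprt, lower by 0.24 (adjusted p = 0.0303), a call lost in 3 of the 4 fits without 1 mouse of each time point (0.0846 to 0.212). Nampt had means of 5.42 ± 0.22 in Mu-RE muscle and 5.43 ± 0.30 in WT muscle (SD, n = 24 and 22), with a 95% interval of the difference from -0.16 to 0.15. Differences of the size seen between KO and WT muscle at that age lie outside this interval.

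Of the 5 other sirtuins 3 were lower in Mu-RE than in KO muscle at each age, where 17.2% and 16.6% of all genes were, and Sirt4 and Sirt6 had no call. The differences were -0.25 and -0.29 for Sirt2, -0.26 and -0.30 for Sirt7 and -0.20 and -0.35 for Sirt5, a mitochondrial deacylase. Aox1 was higher by 0.54 (adjusted p = 7.98e-08) and 0.32 (0.00214). Of the 5 macrophage markers tested 0 passed at either age, and Mu-RE muscle had a summed macrophage level of 3.43, 4.23 and 5.05 at 10 weeks, close to KO muscle. Endothelial markers were lower at 10 weeks, 4 of 7, and 0 of 7 passed at 26 weeks, while fast fibre markers split into 1 higher and 3 lower of 8 at 10 weeks. The part of the fibre and endothelial shifts in the 9 genes' differences was not tested.

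RE-RE mice were set against Br-RE mice, a comparison of the same change in muscle on the background of a brain that also expresses Bmal1, in mice that share none with the comparisons above. At 10 weeks 1 of the 9 genes passed, where 32.2% of all genes did, 14.8% higher and 17.4% lower. Nampt ran at 4.65, 5.30 and 5.95 in RE-RE muscle and 4.48, 5.0 and 5.48 in Br-RE muscle, and 21 of 24 RE-RE libraries were above the Br-RE median. It rose by 0.25 (SE 0.0745; adjusted p = 0.0082), a call lost without the first mouse of each time point (difference 0.12; adjusted p = 0.229). Fast fibre markers split into 2 higher and 4 lower of 8 and slow fibre markers into 3 higher and 0 lower of 5, and their part in the difference was not tested.

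At 26 weeks 3 of the 9 genes passed, 2 higher and 1 lower, where 35.3% of all genes did, 16.5% higher and 18.9% lower. Nampt ran at 5.05, 5.32 and 5.97 in RE-RE muscle and 4.82, 5.11 and 5.49 in Br-RE muscle, and rose by 0.27 (SE 0.0647; adjusted p = 0.000992). Nmnat1 ran at 2.89, 3.11 and 3.45 in RE-RE muscle and 2.63, 2.87 and 3.07 in Br-RE muscle. It rose by 0.23 (adjusted p = 6.14e-06): 24 of 24 RE-RE libraries lay above the Br-RE median and 15 above every Br-RE library. Nnt fell by 0.54 (adjusted p = 0.027), and 2 of the 4 fits without 1 mouse of each time point lost that call. As in Mu-RE against KO muscle, 3 of the 5 other sirtuins (Sirt2, Sirt5 and Sirt7) were lower at each age.

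Ages were compared in WT muscle between separate sets of mice, so age cannot be told apart from other differences between the sets. Between 26 and 10 weeks 0 of the 9 genes passed, where 37% of all genes did. Of the 9 genes 1 had an unadjusted p below 0.05, where 4633 of all 9862 did. That 1 gene was Nmrk1, with a difference of 0.22 (adjusted p = 0.0504). Nampt differed by 0.01, with a 95% interval of -0.13 to 0.16. In old against 26 week muscle 2 genes passed, both lower, where 24.2% of all genes did, 12.9% higher and 11.2% lower. Nmnat1 ran at 2.61, 2.95 and 3.36 in old muscle and 2.78, 3.10 and 3.39 in muscle of 26 weeks, and fell by 0.18 (adjusted p = 0.00587). It was at 0.11 in the weakest fit without 1 mouse of each time point. Nnt fell by 1.06 (SE 0.168; adjusted p = 1.51e-05), against 26 week values that fell into separate runs, as set out further on. Nampt ran at 4.81, 5.22 and 5.92 in old muscle and differed by -0.19 (adjusted p = 0.0899), and by -0.22 (0.0246) without the libraries that stood apart. Fibroblast markers were lower in old muscle, 5 of 5 tested with a median difference of -2.04, with summed levels of 4.19, 5.87 and 7.68 in old muscle and 5.92, 6.94 and 7.95 at 26 weeks, and their part in these differences was not tested.

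Time-restricted feeding was set against ad libitum feeding within each genotype and age. In WT muscle 2 of the 9 genes passed, both lower, where 41% of all genes passed, 20.9% higher and 20.1% lower. Nmrk2 ran at 4.47, 5.43 and 6.32 under TRF and 4.41, 6.18 and 7.21 ad libitum, and 22 of 24 TRF libraries were below the ad libitum median. It fell by 0.73 (SE 0.151; adjusted p = 0.000275). Nampt ran at 4.77, 5.17 and 5.77 under TRF and 4.84, 5.39 and 6.14 ad libitum, and fell by 0.25 (SE 0.0746; adjusted p = 0.00737). Both groups of each gene overlapped over most of their range, and the shift lay in the bulk of the libraries. Naprt (0.23; adjusted p = 0.0555) and Nmnat1 (-0.10; 0.0739) did not pass, though without the libraries that stood apart Nmnat1 was lower by 0.12 (0.0265). Endothelial markers were higher under TRF, 4 of 7, and their part in these differences was not tested.

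The response of Nmrk2 to TRF differed between genotypes. KO muscle had 4.42, 5.59 and 7.06 under TRF and 2.46, 5.87 and 6.85 ad libitum, a difference of -0.06. Its response was 0.66 above that of WT muscle (adjusted p = 0.0421; 27.5% of all genes passed). Mu-RE muscle had 4.92, 5.73 and 7.07 under TRF and 4.64, 5.86 and 7.0 ad libitum, and its response was 0.60 above that of WT muscle (adjusted p = 0.0257; 34.8% of all genes passed). These 2 tests share the WT mice. The call for KO muscle was lost in all 4 fits without 1 mouse of each time point (adjusted p from 0.057 to 0.194), and that for Mu-RE muscle without the first (0.154) or the third (0.224). With a gene length slope they were at 0.218 and 0.0836, and without the filter on low genes the KO one was at 0.0523. For Nampt the KO response was 0.22 above that of WT muscle, which did not pass (adjusted p = 0.105). Between old and 26 week WT muscle 0 of the 9 responses differed with limma (2.1% of all genes passed). An unadjusted p below 0.05 was seen for 1 of them (1856 of all 9862 genes).

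Elsewhere TRF left few calls. In Mu-RE muscle 2 of the 9 genes passed, both higher, where 16.9% of all genes did, 9.05% higher and 7.87% lower. Naprt ran at 0.38, 1.24 and 1.70 under TRF and 0.31, 0.78 and 1.64 ad libitum, and rose by 0.33 (SE 0.0831; adjusted p = 0.00642). Nmnat3 ran at 1.72, 1.92 and 2.31 under TRF and 1.47, 1.73 and 2.09 ad libitum, and rose by 0.19 (adjusted p = 0.0109), with 22 of 23 TRF libraries above the ad libitum median. Naprt was at 0.0591 without the fourth mouse of each time point, and Nmnat3 missed the threshold without the first, the second or the third (0.0538 to 0.156). In KO muscle 0 of the 9 passed with limma (14.2% of all genes), and 1 had an unadjusted p below 0.05 (2979 of all 9862 genes). In old WT muscle 0 of the 9 passed (0.142% of all genes) and 3 had an unadjusted p below 0.05 (1716 of all 9862 genes). The lowest was that of Nmnat1, with a difference of -0.16 (adjusted p = 0.101).

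Nnt had a median within-group SD of 0.82, whereas the other members' medians lay between 0.14 and 0.62, the highest being that of Nmrk2. In the old groups Nnt had the smaller SD, 0.30 under TRF and 0.41 ad libitum, against 0.66 and 0.58 for Nmrk2. The widest gap between neighbouring libraries of a group had a median of 0.58 for both genes. On its smaller side lay 1 to 11 libraries for Nnt, with a median of 5, and 1 to 3 for Nmrk2. Several groups thus had Nnt values in separate runs: under TRF, 13 WT libraries lay at or below 2.62 and 11 at or above 3.79, and 12 Mu-RE libraries lay at or below 2.89 and 11 at or above 3.71. Ad libitum at 26 weeks, 5 Mu-RE libraries were at or below 2.45 and 19 at or above 3.34, and 4 WT libraries were at or below 2.16 and 18 at or above 2.96. Ad libitum at 10 weeks, 7 WT libraries lay below the widest gap and 16 above it, and 8 and 17 in Mu-RE muscle. The same counts were 8 and 15 in Br-RE, 5 and 19 in RE-RE and 19 and 4 in KO muscle of that age. Old ad libitum muscle held 23 libraries at or below 2.82 and 1 at 3.56.

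KO muscle at 26 weeks had 3.25, 4.77 and 5.64, against 1.80, 3.51 and 4.36 in WT muscle, and 15 of 24 KO libraries lay above every WT library. The difference of 1.17 (SE 0.2; adjusted p = 5.74e-06) is a difference of means, of which the WT values were gapped as above. The KO values had a widest gap of 0.35, with 23 libraries below it and 1 above. As background, the C57BL/6J substrain is known to carry a deletion within Nnt, while the labels give the strain as C57BL/6 only. Which allele each mouse carried was not read here and its part in the Nnt differences was not tested. The annotation used for coordinates places Nnt at chr13:119335448-119408997 on the minus strand with a second, overlapping gene model of that name, so its reads may be split.

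**Figure D3:**
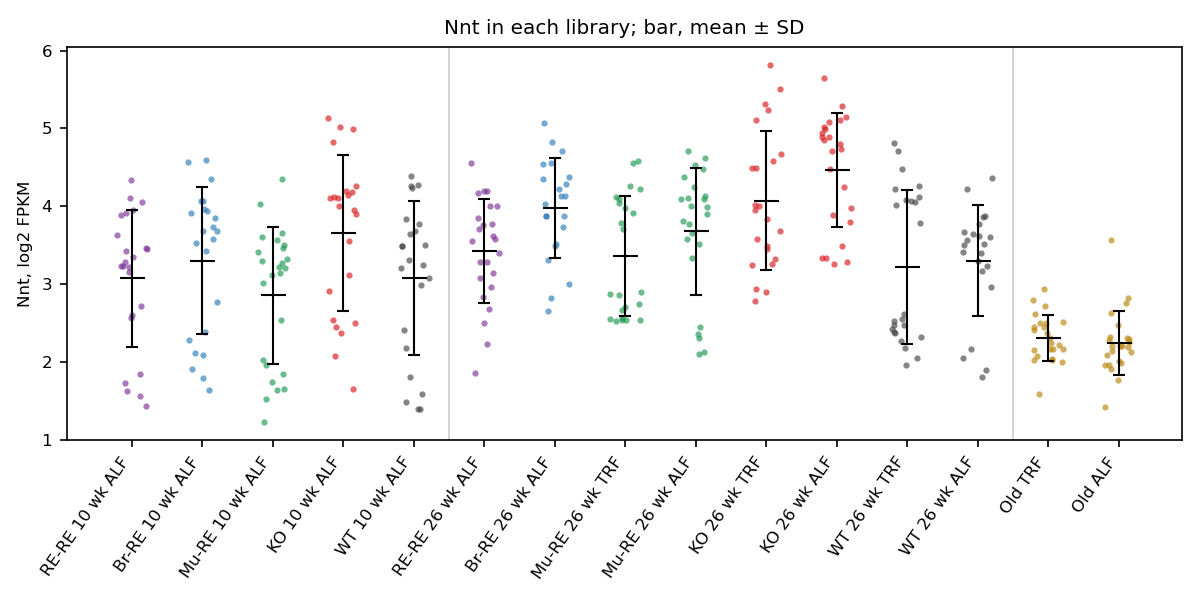
Level of Nnt (log2 FPKM) in each library, by group, with the group mean and SD. Libraries of WT and Mu-RE mice under TRF fall into 13 low and 11 high and into 12 low and 11 high values, and 23 of 24 old ad libitum libraries lie at or below 2.82.

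Rhythms were fitted as a 24 h cosine in each group, where the amplitude is the distance from the 24 h mean to the peak on the log2 scale. Of the 135 tests (9 genes in 15 groups) 7 passed (5.19%, where 6.41% of the tests of all genes in the same groups did). An unadjusted p below 0.05 was seen in 27 of the 135. Of the 9862 genes, 338 had such a p in KO ad libitum muscle at 10 weeks, the fewest, and 4684 in WT TRF muscle, the most. WT muscle under TRF gave 4 of the 7 calls, in a group where 37.8% of all genes passed. Nampt had time means of 4.92, 4.98, 5.10, 5.31, 5.44 and 5.32 from ZT 0 to ZT 20 under TRF, against 5.42, 5.40, 5.63, 5.24, 5.60 and 5.29 ad libitum. The TRF means climbed through the light phase to a high at ZT 16, and the ad libitum means had no such course. Under TRF the amplitude was 0.26 (SE 0.0469; adjusted p = 0.000783) with a peak at ZT 15.1 (SE 0.70 h) and a peak 1.43-fold above the trough.

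The other 3 calls in WT muscle under TRF were close to the threshold. Nmrk2 had time means of 5.04, 5.30, 5.45, 6.00, 5.35 and 5.46, an amplitude of 0.32 and a peak at ZT 12.5 (adjusted p = 0.0414). Sirt1 had time means of 0.73, 0.74, 1.05, 0.98, 1.08 and 1.01, an amplitude of 0.17 and a peak at ZT 13.9 (adjusted p = 0.0496). Nmnat3 had time means of 1.83, 1.67, 1.76, 2.02, 1.91 and 1.84, an amplitude of 0.13 and a peak at ZT 14.9 (adjusted p = 0.0479). All 4 peaks fell around the start of the dark phase or in its earlier part. Without the WT TRF library that stood apart, Nmrk2 (adjusted p = 0.0852) and Nmnat3 (0.0553) no longer passed. Sirt1 and Nmnat3 were lost in all 4 fits without 1 mouse of each time point (adjusted p from 0.0855 to 0.324), and Nmrk2 without the third (0.342) or the fourth (0.13).

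**Figure D4:**
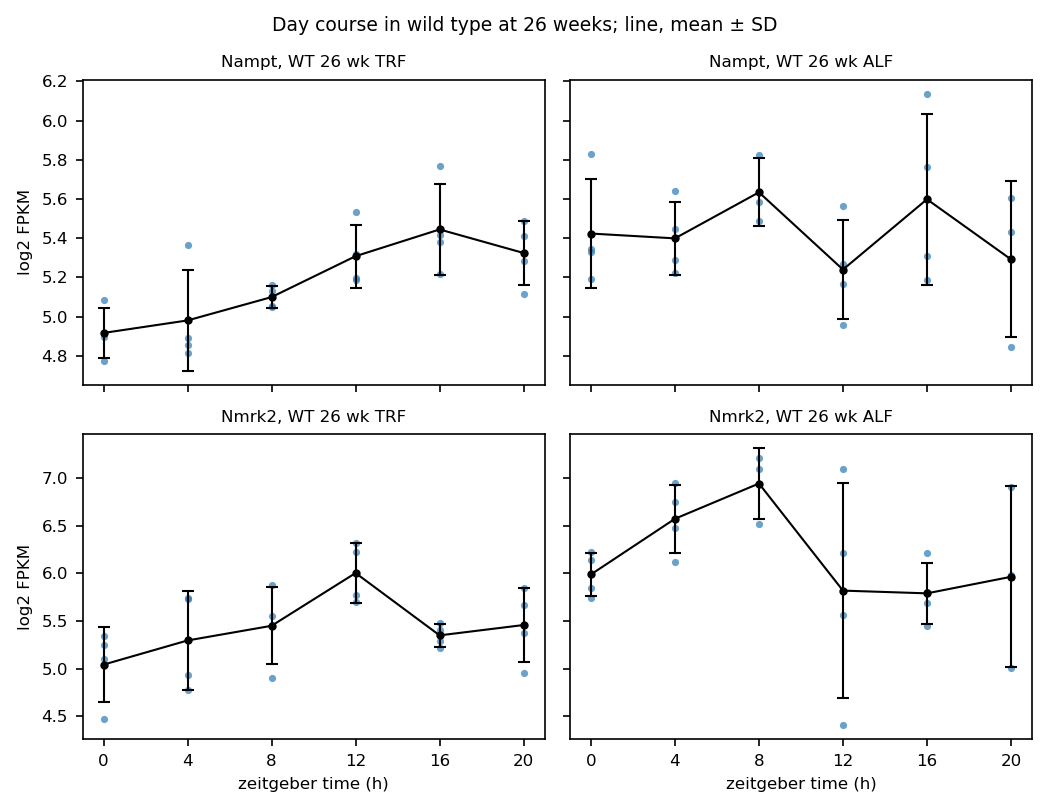
Nampt and Nmrk2 (log2 FPKM) by zeitgeber time (h) in WT muscle at 26 weeks, under TRF on the left and ad libitum on the right. Points are libraries, and the line joins the means of the time points, with SD bars. Nampt means under TRF climb to a high at ZT 16, while its ad libitum means move up and down between 5.24 and 5.63. The 24 h fits of Nampt, which are not drawn, gave a peak at ZT 15.1 under TRF and an amplitude of 0.01 ad libitum.

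Ad libitum, Nampt had no rhythm that passed in any of the 11 groups, with amplitudes from 0.0078 to 0.19. In WT muscle the amplitude was 0.03 at 10 weeks (adjusted p = 0.895), where 5.84% of all genes passed, and 0.01 at 26 weeks, where 1.04% did. The difference between the TRF and ad libitum rhythms of Nampt in WT muscle did not pass (size 0.27, SE 0.104; adjusted p = 0.179; 3.92% of all genes passed), nor did that of Nmrk2 (0.63; 0.115). A rhythm called under TRF and not ad libitum is therefore not shown to differ between the feedings. Beside the groups named here, Nampt lacked a call in ad libitum Br-RE muscle at 26 weeks (0.69% of all genes passed). The same held in KO and in Mu-RE muscle at 10 weeks (0.071% each) and at 26 weeks (0% each). The clock output gene Dbp had no called rhythm in these groups either. Its amplitudes were 0.53 and 0.17 in Mu-RE muscle at 10 and 26 weeks (limma, adjusted p = 0.428 and 0.853). Under TRF the Nampt amplitude was 0.08 in Mu-RE muscle (adjusted p = 0.61; 6.97% of all genes passed), 0.22 in KO muscle (0.132; 6.2%) and 0.13 in old muscle (0.412; 5.71%).

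Nmrk2 had the largest amplitudes of the 9 genes. In KO muscle under TRF its time means were 5.64, 5.50, 4.85, 5.63, 6.31 and 6.05, with an amplitude of 0.59 and a peak at ZT 18.4 (adjusted p = 0.0421). In old ad libitum muscle they were 6.53, 6.43, 6.66, 5.84, 5.78 and 5.44, with an amplitude of 0.55 and a peak at ZT 5.06 (adjusted p = 0.0409; 1.41% of all genes passed). The same gene thus peaked in the night in one and in the day in the other, a difference that was not tested. The largest amplitude, 0.78 in RE-RE muscle at 10 weeks, did not pass (adjusted p = 0.165; 0.588% of all genes passed), nor did 0.60 at 26 weeks (0.221; 0.76%). Both Nmrk2 calls were absent in all 4 fits without 1 mouse of each time point.

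The remaining call was Sirt1 in Br-RE muscle at 10 weeks, where 29% of all genes passed. Its time means were 0.89, 1.16, 1.04, 0.91, 0.87 and 0.74, with an amplitude of 0.17 and a peak at ZT 6.23 (adjusted p = 0.0422), and the call was lost in 3 of the 4 fits without 1 mouse of each time point (0.148 to 0.236). Of the 153 tests of a difference in rhythm between groups, 1 passed (0.654%, where 0.722% of the tests of all genes did). An unadjusted p below 0.05 was seen in 16 of the 153. Of the 9862 genes, 109 had such a p in old against 26 week muscle, the fewest, and 2642 for TRF in WT muscle, the most. Of all genes, the share that passed at 10 weeks was 0.517% for KO against WT, 1.11% for Mu-RE against WT, 0.913% for Br-RE against KO, 0% for RE-RE against WT and 0.152% for RE-RE against either Br-RE or Mu-RE muscle. At 26 weeks it was 0.172% for KO against WT, 0.314% for Mu-RE against WT, 0% for Br-RE against KO, 0.0101% for RE-RE against WT, 0.0913% for RE-RE against Br-RE and 0.0608% for RE-RE against Mu-RE. It was 0% for old against 26 week muscle and for TRF in KO and in old muscle. Of the 36 interaction tests of rhythms 0 passed with limma and 5 had an unadjusted p below 0.05, and 0% of all genes passed in each. Between 288 and 954 of the 9862 genes had such a p in each interaction. The 1 call was Naprt in Mu-RE muscle, whose TRF and ad libitum rhythms differed by 0.44 (adjusted p = 0.0467; 4.86% of all genes passed), and it was lost without the first, the second or the third mouse of each time point (0.128 to 0.456). By contrast with the 9 genes, Aox1 of the nicotinamide list had a rhythm in WT muscle ad libitum at 10 weeks (amplitude 0.48, peak ZT 13.9; adjusted p = 0.00955) and at 26 weeks (0.55, ZT 15.7; 0.00157).

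**Figure D5:**
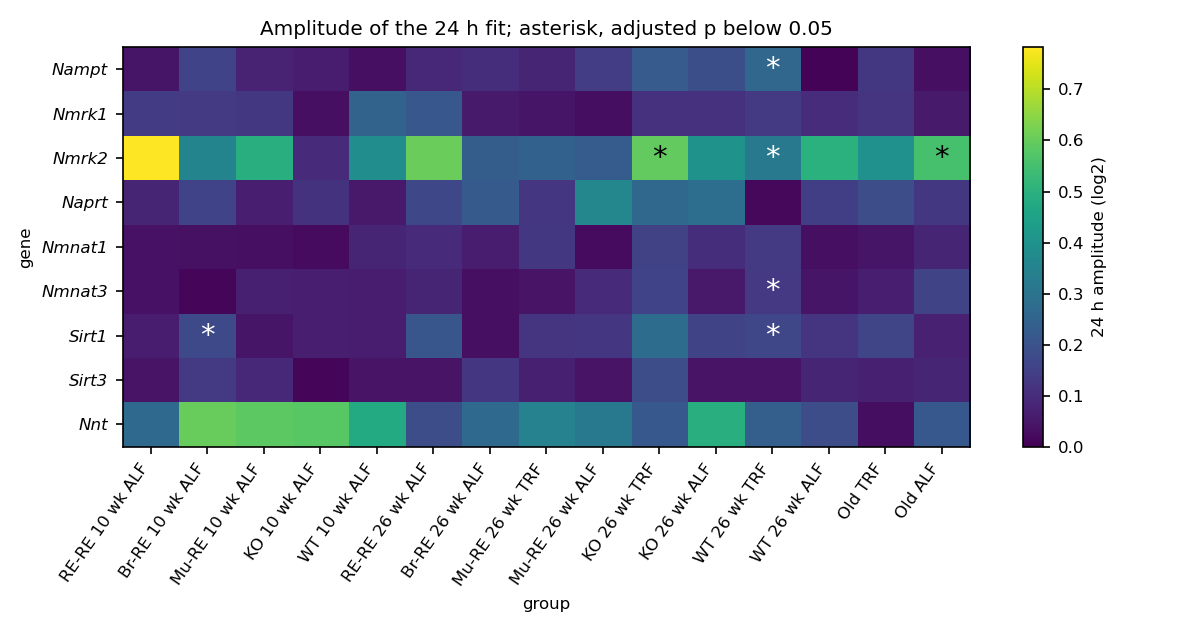
Amplitude (log2) of the fitted 24 h rhythm of the 9 genes, in rows, in the 15 groups, in columns, with the calls at an adjusted p below 0.05 marked. The 7 calls lie in WT TRF (4), KO TRF, Br-RE at 10 weeks and old ad libitum muscle.

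The genes whose pattern was most like that of a member were found by Pearson's r over the 90 means of group and time point, which share libraries, depth and the centring above. For Nampt they were Smarca5 (r = 0.852), Ugp2 (0.845) and Mllt3 (0.837). For Sirt1 the closest was Trpm7 (0.773), for Naprt Psen2 (0.728), for Nmnat3 Dcaf11 (0.727), for Sirt3 Mtfp1 (0.717) and for Nmnat1 Mmaa (0.713). For Nmrk2 it was 9330159F19Rik (0.674) and for Nmrk1 4931406C07Rik (0.622). Among the 9 genes, a far smaller pool to choose from, the highest values were 0.555 for Nampt with Nmnat1 and 0.555 for Nampt with Sirt1. No r is given for Nnt, whose values fall into separate runs.

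Over the 14 level comparisons, Nampt passed in 8 of them, 4 higher and 4 lower. Each of the 4 higher calls was a comparison of muscle with Bmal1 returned against muscle without it, and the lower calls were KO against WT at both ages, Mu-RE against WT at 10 weeks and TRF against ad libitum feeding in WT muscle. Nmrk2 passed in 3, lower in each, and differed by between -0.73 and 0.36 over the 14. Nmnat1 passed in 5, Naprt in 5 and Nnt in 5. The calls of Sirt1 (2), Sirt3 (1), Nmnat3 (1) and Nmrk1 (2) were fewer, and their differences stayed within -0.20 and 0.38. In all, 32 of the 126 level tests of the 9 genes passed, which is 25.4%, where 29.6% of the tests of all genes in the same 14 comparisons did.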

How the data were processed

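Per the submitters' processing notes GRCm38 was the build, and the tools were limma 3.44.1, edgeR 3.30.0, featureCounts 1.6.2, HISAT2 2.1.0, Trim Galore 0.5.0 and FastQC 0.11.8, with no role stated. The deposited values are log2 FPKM per gene, in 1 table, to which the authors had added 0.01 FPKM as read from the lowest values. Depth was recovered from single-read steps: in the median library 94.65% of low values, and at least 91.63% in any, came within 0.1 of a whole read. The equal gene means of sexes and sets of libraries are read from the values. No source used here states the step behind them.

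Levels and rhythms were fitted with limma 3.58.1 in R 4.3.3 (trend and robust) to the deposited values, two-sided, with sex as a covariate and, for each group, its level and the cosine and sine terms of 24 h. Only the groups compared entered a fit, and p-values were Benjamini-Hochberg adjusted over the 9862 genes with a mean log2 of at least 0. The fit was tested on simulated data. The 9 genes are named in every comparison; of each list of related genes at most 4 of a comparison are named, those with the smallest adjusted p, and the 3 genes most like a member are taken by Pearson's r. The members, lists and tests were chosen with earlier results of these data known. Alternatives were 1 pseudocount (log2 of FPKM + 1), no filter, a variance from all 15 groups, no sex term, 6 separate time points, limma without trend, centring of libraries on their median, a gene length slope, a replicate block and leaving out 1 mouse of each time point, and, chosen after seeing the data, leaving out the 4 libraries that stood apart or the deepest WT library of 10 weeks. Tables were handled with Python 3.11.15, pandas 2.3.3 and numpy 2.4.6, and drawn with matplotlib 3.10.9.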

Additional observations from a re-analysis of the deposited data

Results flagged for a closer look

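The effect of the knockout on Naprt, the enzyme that uses nicotinic acid, differed between ages. The KO minus WT difference at 26 weeks lay 0.42 below that at 10 weeks on the log2 scale (value -0.4157; limma interaction term, adjusted p = 0.0145). It was flagged because this test passed, as it did for 18.8% of all genes. The difference ranged from -0.51 to -0.27 over the alternatives and was called in 12 of 14. The cause was not tested.

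The response of Nmrk2, the muscle riboside kinase, to time-restricted feeding differed between genotypes in both tests run. It was 0.6611 higher in KO than in WT muscle (adjusted p = 0.0421) and 0.5965 higher in Mu-RE than in WT muscle (adjusted p = 0.0257), with the same WT mice in both. The same tests passed for 27.5% of all genes in KO and 34.8% in Mu-RE muscle. The call held in 7 of 13 alternatives for KO and in 10 of 13 for Mu-RE muscle. Of the 4 fits without 1 mouse of each time point, 0 kept the KO call and 2 the Mu-RE call. The cause was not tested.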

How the results depend on the processing

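No level difference of the 9 genes that was called in either fit changed sign under an alternative. Of 2196 level values under the alternatives 96 had the opposite sign, all of differences that were not called and were at most 0.206 in size. Called under every alternative run was Nampt in KO against WT and in Mu-RE against KO at both ages. It also held in Mu-RE against WT at 10 weeks and in RE-RE against Br-RE at 26 weeks. In WT muscle under TRF its level and its rhythm both held (highest adjusted p 0.0474 and 0.0229). Nmrk2, Nmnat1 and Sirt1 held in KO against WT at 10 weeks, and Nmrk2 in WT under TRF. Nnt held in KO against WT at 26 weeks and in old muscle. Naprt and Nmrk1 held in Mu-RE against KO and in Mu-RE against WT at 10 weeks. Nmrk2 held in Mu-RE against WT at 10 weeks too, and Nmnat1 in RE-RE against Br-RE at 26 weeks.

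Counts of the 9 genes that moved by more than 1.5 times are given here; 33 others moved by 1 call, among them KO against WT at 10 weeks (4 to 6 calls) and Mu-RE against WT of that age (5). With the gene length slope the Mu-RE interaction with TRF still had 1 call, in Sirt3 (-0.28; adjusted p = 0.0487) and not in Nmrk2 (0.0836). With the variance from all 15 groups, the level calls were 7 in KO against WT at 26 weeks (from 4), 4 in Mu-RE against KO at 26 weeks (from 2), 4 in WT under TRF (from 2) and 1 each in WT 26 against 10 weeks, KO TRF and old TRF (from 0); rhythm calls were 1 in WT and RE-RE at 10 weeks, 2 in RE-RE at 26 weeks, 6 in KO TRF, and 0 in Br-RE at 10 weeks and old ad libitum muscle; and the KO interaction with TRF had 2. With the gene length slope, level calls were 4 in Mu-RE against KO and 0 in Mu-RE against WT at 26 weeks, 5 in RE-RE against Br-RE at 10 weeks, 1 in WT 26 against 10 weeks, 4 in WT and 1 in Mu-RE muscle under TRF, and 0 in the KO interaction with TRF. Its rhythm calls were 0 in Br-RE and 1 in RE-RE muscle at 10 weeks and 2 each in WT TRF and KO TRF.

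Without the filter, rhythm calls were 0 in Br-RE at 10 weeks, KO TRF and old ad libitum muscle and 1 in WT TRF, and the KO interaction with TRF had 0. With 6 separate time points, level calls were 2 in RE-RE against Br-RE at 10 weeks and 1 in WT 26 against 10 weeks, and rhythm calls 0 in Br-RE at 10 weeks, KO TRF and old ad libitum, 2 in WT TRF and 1 in Mu-RE TRF. WT 26 against 10 weeks also had 1 with log2(FPKM + 1) and 1 without trend, and KO TRF had 2 rhythm calls with centred libraries. Without the 4 libraries that stood apart there were 4 in Mu-RE against KO at 26 weeks, 2 in the KO interaction with TRF and 2 rhythms in WT TRF. The rhythm difference in Mu-RE muscle under TRF had 0 calls with no filter, with log2(FPKM + 1), with the variance of all groups, with the length slope and with the replicate block.

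Without 1 mouse of each time point, level calls ranged from 2 to 4 in KO against WT, 1 to 3 in Mu-RE against KO and 0 to 1 in Mu-RE against WT at 26 weeks, 0 to 2 in RE-RE against Br-RE at 10 weeks, 1 to 3 in old muscle, 1 in Mu-RE TRF and 0 to 1 in old TRF; 0 to 1 in the interactions of KO with age and of Mu-RE with TRF and 0 in that of KO with TRF; rhythm calls 0 to 1 in Br-RE at 10 weeks, 1 to 3 in WT TRF, 0 in KO TRF and 0 in old ad libitum muscle, and 0 to 2 for the rhythm difference in Mu-RE muscle under TRF.

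Title numbers name different mice, and not every same-numbered pair deviated together (KO against WT at 10 weeks: 22 pairs, r from -0.242 to 0.342, 13 above 0.1). With the replicate block 275 results of the 9 genes kept their side of the threshold, 2 gained and 2 lost a call, all 4 in Naprt. It was at -0.28 (adjusted p = 0.0733) in KO against WT at 26 weeks, 0.24 (0.0244) in RE-RE against Br-RE at 26 weeks and 0.24 (0.0407) in WT under TRF, and its rhythm difference in Mu-RE muscle under TRF was at an adjusted p of 0.104. Rhythms within a group and interactions were not fitted with the block.

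Calls over all genes moved too: rhythms in KO TRF numbered 611, and between 1 and 3685 over the alternatives, those in Br-RE at 10 weeks 2862 (172 to 2905), and level calls of KO TRF 1396 (90 to 2749). Leaving out the third mouse of each time point lowered rhythm calls over all genes to 1938 in WT TRF (from 3732) and 44 in old ad libitum muscle (from 139). Leaving out the second lowered those for the rhythm difference in Mu-RE muscle under TRF to 20 (from 479). Each time point of a group held 3 to 5 mice. The cause of these changes was not tested.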
